A study of Mus musculus with 9 samples.

Results

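The genes described here are 10 members of the EGF family signaling system, taken by symbol from a table of 35275 genes: the ligands Hbegf, Areg, Ereg, Tgfa, Btc and Nrg1, the receptors Egfr and Erbb2, and the receptor inhibitors Errfi1 and Lrig1. Each symbol matched 1 gene of the table. Mouse embryonic fibroblasts (MEFs) of strain C57Bl/6, a line maintained in the laboratory, were kept in iso-osmolar medium or exposed for 3 h to sucrose added at 200 mM, which gives low-intensity hyperosmotic stress (500 mOsm), or at 300 mM, which gives high-intensity stress (600 mOsm). All cells were wild type and grew in serum-containing medium. Poly-T-enriched mRNA was sequenced as 3 libraries per treatment, and the question was how the response differs with the intensity of the stress. The labels do not say whether the 3 libraries came from separate cultures, so the p-values measure the spread between these libraries, which may be technical.

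Ligands of the EGF family are made as membrane-bound precursors, and metalloproteases of the ADAM family release them from the cell surface. The released ligands bind receptors of the ErbB family, which pair with each other, phosphorylate their own tails and switch on the ERK and PI3-kinase cascades. Hbegf, Areg, Ereg, Tgfa and Btc bind Egfr, whereas Nrg1 binds Erbb3 and Erbb4. Erbb2 has no ligand of its own and serves as the partner of the other receptors. Errfi1, also known as Mig6, is a cytosolic protein that binds the kinase domain of the receptor and blocks it, and it is itself a target of receptor signaling. Lrig1 is a membrane protein that promotes removal of ErbB receptors. In fibroblasts, Hbegf and Ereg are known as early response genes, and shedding of EGF ligands is a known response of cells to osmotic stress.

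Total counts on genes lay between 21716042 and 26740832 per library. Totals of at most 3 reads per group were treated as the floor of detection, which covers counting error only. Of 12 fibroblast markers, 10 had a mean above 1 FPKM (read counts scaled by gene length and library total), and the summed level of the list was 5557 to 5657 FPKM in iso-osmolar medium, 5450 to 5693 at 500 mOsm and 6270 to 6330 under 600 mOsm. The 9 epithelial markers summed to 0.955 to 1.14 FPKM in iso-osmolar medium, 1.93 to 2.48 at 500 mOsm and 1.01 to 1.45 at 600 mOsm, with Esrp1 and Krt5 at 0 in every library. The 6 macrophage or blood markers in the table summed to 15.6 to 28.3 FPKM over all libraries, and the ranges of the 3 treatments overlapped. Of these, 4 (Csf1r, Lyz2, Cd14 and Cd68) had a mean above 1 FPKM. The 5 endothelial markers summed to 0.211 to 0.265 FPKM in iso-osmolar medium, 3.38 to 3.86 at 500 mOsm, where Pecam1 led, and 0.582 to 0.931 under 600 mOsm. The 5 neural or glial markers summed to 0.616 to 1.03, 1.84 to 2.16 and 1.03 to 1.33 FPKM in the same order, and the 4 muscle markers, with Myog at 0, to at most 0.187 FPKM. The part of these other cell markers in the results below was not tested.

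Low-intensity stress was marked by higher mRNA of the ligands Hbegf and Ereg together with lower mRNA of both receptors and both inhibitors, and Areg had reads above the floor in these libraries alone. High-intensity stress was marked by lower Hbegf, Ereg, Tgfa, Errfi1 and Lrig1. Of the 10 members, 9 passed the filter on low counts and were tested by edgeR's quasi-likelihood test together with the other genes, 13082 in all. Btc did not pass. At 500 mOsm against iso-osmolar medium, 3 members were higher (13.2% of all genes tested were called higher) and 4 were lower (14.8% of all genes tested). Areg passed the filter only through its 500 mOsm libraries, so its calls follow largely from its having been tested. Without it, 2 members were higher at 500 mOsm and 4 were lower between the intensities. At 600 mOsm against iso-osmolar medium, 1 member was higher (15.1% of all genes tested) and 5 were lower (20.0% of all genes tested). Between the intensities, 1 member was higher at 600 mOsm (11.9% of all genes tested) and 5 were lower (17.2% of all genes tested). The 2 comparisons with iso-osmolar medium share the same control libraries.

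Hbegf encodes heparin-binding EGF-like growth factor and maps to chromosome 18 of mm10 (minus strand, 36504929 to 36515805). It was the most abundant ligand in every library. Its level was 42.3, 42.4 and 41.5 FPKM in the iso-osmolar libraries, 68.5, 63.3 and 69.6 FPKM under 500 mOsm, and 23.1, 23.7 and 23.9 FPKM under 600 mOsm. The 3 treatments did not overlap, with the 500 mOsm libraries highest and the 600 mOsm libraries lowest. In bulk libraries such as these, fewer cells of a kind and less RNA per cell cannot be told apart. Against iso-osmolar medium Hbegf rose at 500 mOsm by log2 fold change 0.68 (standard error, SE, 0.0485, adjusted p = 4.37e-07, edgeR), which is 1.60-fold. At 600 mOsm it fell, with log2 fold change -0.81 (SE 0.0499, edgeR adjusted p = 1.42e-07). The direct comparison of 600 with 500 mOsm gave log2 fold change -1.49 (SE 0.0499, edgeR adjusted p = 4.45e-10), so that 2.81-fold less Hbegf mRNA was present under the stronger stress.

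Ereg encodes epiregulin and maps to chromosome 5 (plus strand, 91074617 to 91093649). Its level was 21.96, 17.1 and 17.6 FPKM in iso-osmolar medium, 27.3, 22.6 and 27.9 FPKM under 500 mOsm, and 4.16, 5.42 and 4.38 FPKM under 600 mOsm. The lowest 500 mOsm library lay just above the highest iso-osmolar library, and the 600 mOsm libraries were far below both. Ereg rose at 500 mOsm by log2 fold change 0.46 (SE 0.106, edgeR adjusted p = 0.00505) and fell 4.01-fold at 600 mOsm, with log2 fold change -2.002 (SE 0.116, edgeR adjusted p = 9.23e-08). Between the intensities the log2 fold change was -2.47 (SE 0.116, edgeR adjusted p = 1.24e-08). The ratio of Hbegf to Ereg FPKM went from 2.26 ± 0.293 in iso-osmolar cells and 2.60 ± 0.176 under 500 mOsm to 5.13 ± 0.659 under 600 mOsm (SD, n = 3 each). Every 600 mOsm library had a higher ratio (4.37 to 5.56) than any other library (1.93 to 2.80).

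Areg encodes amphiregulin and follows Ereg on the same strand, from 91139615 to 91148432 on chromosome 5, 45.97 kb beyond the end of Ereg. It was almost silent in iso-osmolar medium, with 1, 1 and 0 reads in the 3 libraries. At 500 mOsm it had 31, 37 and 23 reads, and at 600 mOsm again 1, 1 and 0 reads. In FPKM, the 500 mOsm libraries held 1.06, 1.15 and 0.741, and every other library held at most 0.0384. The 500 mOsm libraries did not overlap the others. Since Areg entered the edgeR test through these libraries alone, its p-values are not given as support. With group totals of 91 and 2 reads, the ratio of 500 mOsm to iso-osmolar medium was 41.7, with an exact 95% counting interval from 11.2 to 349. The totals of 2 reads at 600 mOsm and 2 in iso-osmolar medium are under the floor and give no fold. Of all 192 genes tested that had at most 3 reads over the iso-osmolar libraries, 179 (93.2%) were called higher at 500 mOsm.

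The ligand genes on either side of the Ereg and Areg pair were scarce. Epgn, which lies 39.4 kb before Ereg, had 1 to 8 reads per library, a range over all libraries whose split by treatment is not given here. Btc, which encodes betacellulin and lies 208.8 kb beyond Areg on the minus strand (91357261 to 91402994), had 7, 2 and 2 reads in iso-osmolar medium, 1, 2 and 2 at 500 mOsm and 1, 1 and 2 under 600 mOsm. The ratio of Btc at 500 mOsm to iso-osmolar medium was 0.416, with an exact 95% counting interval from 0.113 to 1.30, and at 600 mOsm it was 0.352, from 0.0818 to 1.19. At this depth no difference in Btc was detectable, and 7 of the 11 iso-osmolar reads came from 1 library.

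Promoter sequences from RefSeq (GRCm38.p6) were given for 7 of the members, and those of Areg and Errfi1 are shown because Areg had its reads at 500 mOsm, where Errfi1 was lower, while both windows hold the same pair of motifs. Each line is the 250 bases before a start site, 5′ to 3′, and capitals mark a full cAMP response element (CRE, TGACGTCA) and a TATA box (TATAAA). The Areg window is chr5:91139349-91139598 on the plus strand of GRCm38.p6. The Errfi1 window is chr4:150854820-150855069 on the plus strand, the second of its 2 start sites in that table.
Areg: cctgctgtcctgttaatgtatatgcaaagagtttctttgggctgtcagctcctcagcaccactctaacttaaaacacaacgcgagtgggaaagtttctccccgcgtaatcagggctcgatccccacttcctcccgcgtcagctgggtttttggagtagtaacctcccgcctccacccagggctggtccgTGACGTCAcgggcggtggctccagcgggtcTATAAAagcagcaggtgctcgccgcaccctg
Errfi1: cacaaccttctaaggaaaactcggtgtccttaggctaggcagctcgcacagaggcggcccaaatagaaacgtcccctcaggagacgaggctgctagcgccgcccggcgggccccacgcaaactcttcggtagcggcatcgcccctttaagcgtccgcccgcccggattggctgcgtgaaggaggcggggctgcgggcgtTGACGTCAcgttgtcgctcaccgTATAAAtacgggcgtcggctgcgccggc
Counting the base before the start site as -1, the CRE began at -61 in Areg and at -51 in Errfi1, and the TATA letters at -31 and -28. Both strands were searched in all 32851 windows of the table, of which 1.55% held the CRE, 12.4% the TATA letters and 39 windows (0.119%) held both. No other member window held the CRE or TATA letters. Hbegf, Ereg and Nrg1 had no window and so were not searched. The Areg window also held the Sp1 letters GGGCGG once, at -52, and the Errfi1 window 3 times, where 32.7% of all windows held them. Neither window held the AP-1 letters TGANTCA (6.75% of all windows), the TonE core TGGAAA (18.6%), the ETS core CCGGAA (12.0%), a CArG box (1.47%) or an NF-κB site (3.90%). A match is a description of the letters and not a site shown to be used.

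Tgfa, which encodes transforming growth factor alpha, had few reads and was lowest under the stronger stress. It maps to chromosome 6 (plus strand, 86195251 to 86275449). It had 30, 24 and 29 reads in the iso-osmolar libraries, 19, 19 and 19 under 500 mOsm, and 7, 11 and 7 under 600 mOsm. The treatments did not overlap in FPKM. The fall at 600 mOsm against iso-osmolar medium passed the test (log2 fold change -1.74, SE 0.295, adjusted p = 0.000648, edgeR). At 500 mOsm the log2 fold change was -0.66 with a 95% interval from -1.22 to -0.11 and did not pass after adjustment (adjusted p = 0.0709, edgeR). Between the intensities the log2 fold change was -1.08 (SE 0.314, edgeR adjusted p = 0.0214), a call that the Wald test of DESeq2 (adjusted p = 0.0733), limma on log2(FPKM + 1) (adjusted p = 0.0681) and the fits without 500 mOsm replicate 1, 600 mOsm replicate 1 or 600 mOsm replicate 3 (adjusted p from 0.0580 to 0.0912) did not make, and that also missed a threshold of 0.01.

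Nrg1, which encodes neuregulin 1, was the one member that rose from iso-osmolar medium to 600 mOsm. The table places it on chromosome 8 (minus strand, 31818028 to 31918203), whereas GENCODE vM21 gives the gene from 31814551 to 32884029, so the reads counted cover part of the longer annotation. Its level was 2.61, 2.47 and 3.26 FPKM in iso-osmolar medium, 3.25, 2.79 and 4.06 FPKM under 500 mOsm, and 3.51, 3.68 and 3.88 FPKM under 600 mOsm. The 600 mOsm libraries lay above all iso-osmolar libraries, while the 500 mOsm libraries overlapped both. The log2 fold change at 600 mOsm was 0.43 (SE 0.147, edgeR adjusted p = 0.0384), and it did not pass with library size alone as the scaling (adjusted p = 0.0540), in limma on log2 FPKM (adjusted p from 0.0511 to 0.0557) or without iso-osmolar replicate 1, iso-osmolar replicate 2 or any single 600 mOsm library (adjusted p from 0.0586 to 0.126). At 500 mOsm against iso-osmolar medium the log2 fold change was 0.28, with a 95% interval from -0.04 to 0.60 (adjusted p = 0.195, edgeR). Between the intensities it was 0.15, with a 95% interval from -0.16 to 0.46 (adjusted p = 0.472, edgeR).

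**Figure D1:**
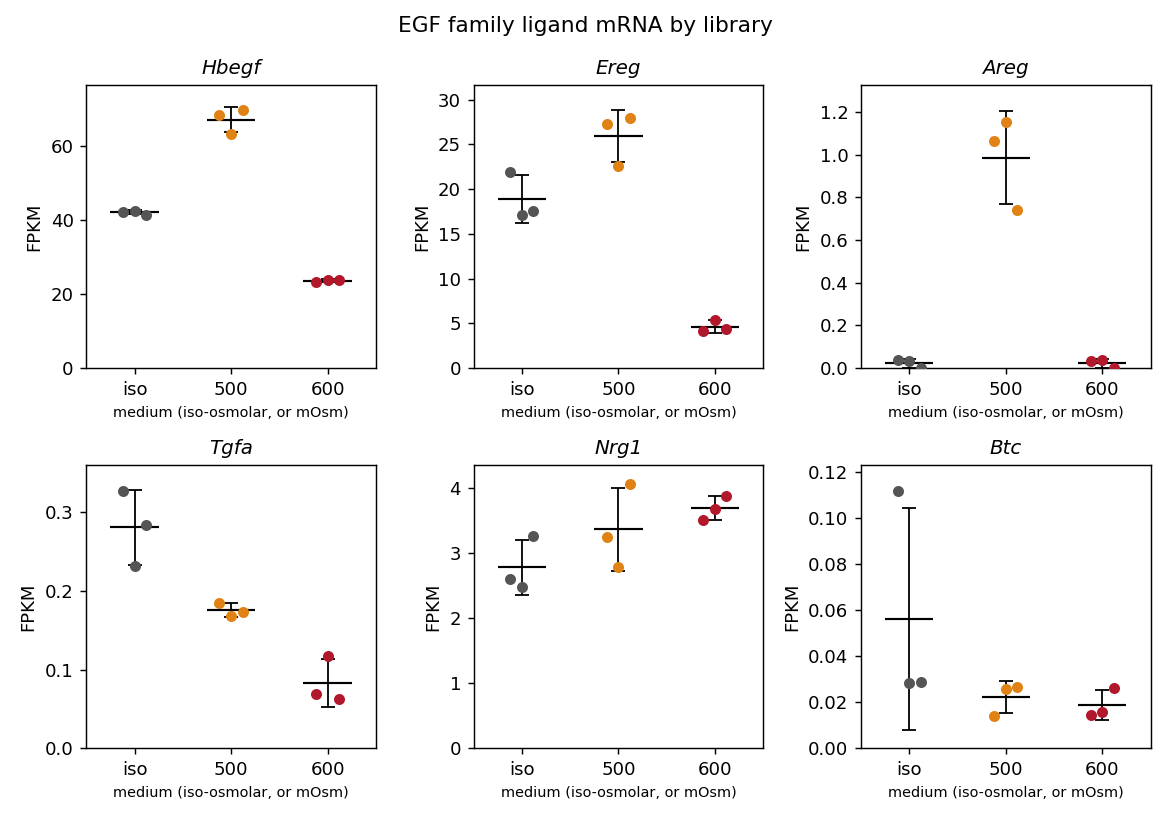
FPKM of the 6 ligand genes in each library, by medium (iso-osmolar, 500 mOsm, 600 mOsm). Points are libraries, horizontal lines are means and bars are SD (n = 3), each vertical axis starts at 0 and has its own scale; Hbegf, Ereg and Areg peak at 500 mOsm, where Hbegf reaches 63.3 to 69.6 FPKM, and Tgfa is lowest at 600 mOsm.

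Summed over the 6 ligands, the level was 67.3, 62.3 and 62.6 FPKM in iso-osmolar medium, 100.3, 90.05 and 102.5 FPKM at 500 mOsm and 30.9, 33.0 and 32.2 FPKM under 600 mOsm. Hbegf and Ereg together made up 95.1% ± 0.693 of this sum in iso-osmolar cells, 95.3% ± 0.197 under 500 mOsm and 88.1% ± 0.361 under 600 mOsm (SD, n = 3 each). The share of Nrg1 was 4.35% ± 0.744, 3.43% ± 0.460 and 11.5% ± 0.472 in the same order (SD, n = 3 each). By these FPKM values the ligands of Egfr outweighed Nrg1 in every library, and least so at 600 mOsm. The share of Nrg1 rests on the part of its longer annotation that was counted.

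Egfr, the receptor of most of these ligands, had a low mRNA level and was lower at 500 mOsm. It maps to chromosome 11 (plus strand, 16752203 to 16918158). Its level was 2.15, 1.94 and 2.10 FPKM in iso-osmolar medium, 1.68, 1.40 and 1.55 FPKM under 500 mOsm, and 1.70, 1.86 and 1.75 FPKM under 600 mOsm. The treatments did not overlap, with the 500 mOsm libraries lowest. Against iso-osmolar medium it fell at 500 mOsm with log2 fold change -0.42 (SE 0.0825, edgeR adjusted p = 0.00197). At 600 mOsm the log2 fold change was -0.20, with a 95% interval from -0.38 to -0.03 (adjusted p = 0.0704, edgeR), and its sign turned to 0.08 with GC content and transcript length corrected for. Between the intensities the log2 fold change was 0.21 (95% interval from 0.03 to 0.39, adjusted p = 0.0754, edgeR), and with that correction it was 0.48 (adjusted p = 0.000160), higher at 600 mOsm.

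Erbb2 was the most expressed receptor, 13.0 ± 1.12 times the FPKM of Egfr (SD, n = 3) in iso-osmolar medium. It maps to chromosome 11 (plus strand, 98412470 to 98437716), and 9 bases at its end overlap Mien1 on the other strand. Its level was 25.5, 27.4 and 27.3 FPKM in iso-osmolar medium, 19.99, 21.4 and 18.9 FPKM under 500 mOsm, and 24.9, 23.2 and 26.3 FPKM under 600 mOsm. The 500 mOsm libraries were below all others, and the 600 mOsm libraries overlapped the iso-osmolar ones. Erbb2 fell at 500 mOsm with log2 fold change -0.41 (SE 0.0699, edgeR adjusted p = 0.000709) and was higher at 600 than at 500 mOsm by 0.32 (SE 0.0699, edgeR adjusted p = 0.00413). The log2 fold change of 600 mOsm against iso-osmolar medium was -0.08, with a 95% interval from -0.24 to 0.07 (adjusted p = 0.374, edgeR). The ratio of Erbb2 to Egfr FPKM was 13.1 ± 1.87 under 500 mOsm and 14.1 ± 1.38 under 600 mOsm (SD, n = 3 each), and both groups overlapped the iso-osmolar libraries (11.8 to 14.1).

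The other receptors had few or no reads. Erbb4 had 0 reads in every library, and Erbb3 had 0 to 12 reads per library with at most 0.0820 FPKM. The range of Erbb3 is over all libraries, and its split by treatment is not given here. These are the receptors that bind neuregulin directly. The remaining ligand genes were also scarce. Nrg3 had 0 reads in every library, and Nrg2 and Nrg4 had at most 15 and 10 reads in any library, also without a split by treatment. Egf itself, with 0.156 ± 0.0323 FPKM in iso-osmolar cells, 0.258 ± 0.0775 under 500 mOsm and 0.0887 ± 0.0325 under 600 mOsm (SD, n = 3 each), passed the edgeR test between the intensities (log2 fold change -1.50, adjusted p = 0.00519) and not against iso-osmolar medium (adjusted p = 0.101 and 0.129).

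Errfi1 was the most abundant member in iso-osmolar medium and fell step by step with the intensity of stress. It maps to chromosome 4 (plus strand, 150853919 to 150868892). Its level was 48.0, 46.6 and 43.7 FPKM in iso-osmolar medium, 34.1, 33.2 and 39.1 FPKM under 500 mOsm, and 14.6, 16.1 and 13.6 FPKM under 600 mOsm. No treatment overlapped another. The log2 fold change against iso-osmolar medium was -0.38 at 500 mOsm (SE 0.0672, edgeR adjusted p = 0.000919) and -1.62 at 600 mOsm (SE 0.0704, edgeR adjusted p = 8.19e-09), a 3.08-fold fall. Between the intensities it was -1.25 (SE 0.0701, edgeR adjusted p = 5.90e-08). An antisense gene that overlaps its start, 1700045H11Rik, had 1 read over all 9 libraries.

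Lrig1 was lower than in iso-osmolar medium at both intensities. It maps to chromosome 6 (minus strand, 94604529 to 94700158), and 144 bases at its end overlap Slc25a26 on the other strand. Whether counting used the strand is not given in the sources used here. Its level was 17.3, 17.4 and 15.4 FPKM in iso-osmolar medium, 12.8, 12.9 and 13.1 FPKM under 500 mOsm, and 12.5, 12.6 and 13.9 FPKM under 600 mOsm. All 6 stressed libraries were below the lowest iso-osmolar library, and the stressed groups overlapped. The log2 fold change against iso-osmolar medium was -0.36 at 500 mOsm (SE 0.0681, edgeR adjusted p = 0.00128) and -0.34 at 600 mOsm (SE 0.0682, edgeR adjusted p = 0.00220). Between the intensities it was 0.03, with a 95% interval from -0.12 to 0.18 (adjusted p = 0.806, edgeR).

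**Figure D2:**
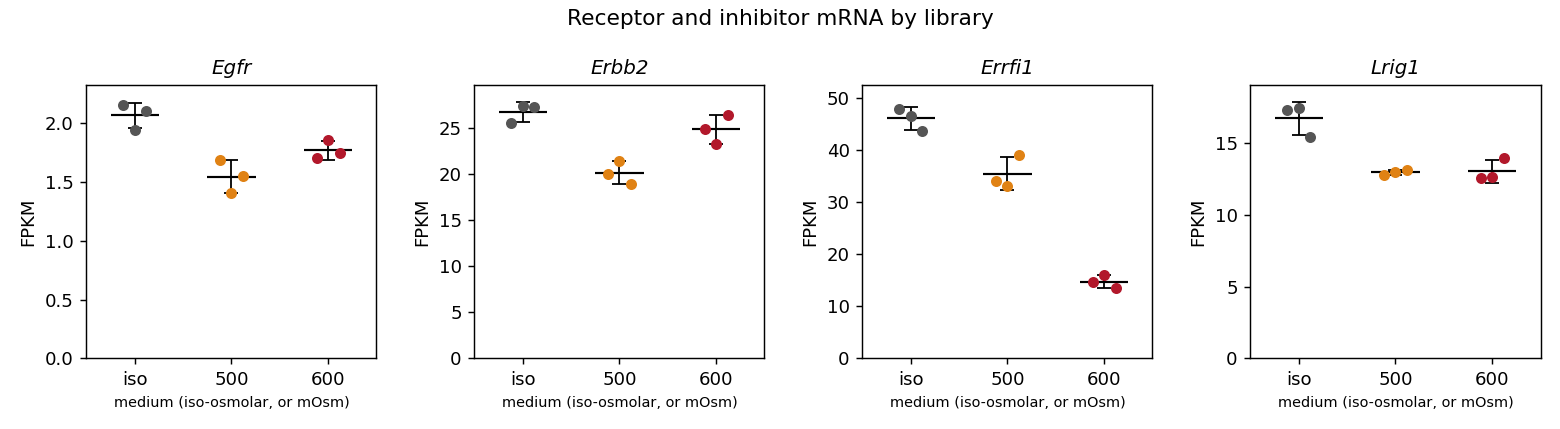
FPKM of the receptor genes Egfr and Erbb2 and of the inhibitor genes Errfi1 and Lrig1 in each library, by medium. Points are libraries, horizontal lines are means and bars are SD (n = 3), each axis starts at 0; both receptors are lowest at 500 mOsm, Errfi1 falls from 43.7 to 48.0 FPKM in iso-osmolar medium to 13.6 to 16.1 at 600 mOsm, and Lrig1 is lower at both intensities.

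Per length, the order of the members changed with the treatment. In iso-osmolar medium the order from high to low was Errfi1, Hbegf, Erbb2, Ereg, Lrig1, Nrg1, Egfr, Tgfa, Btc and Areg. Only Ereg and Lrig1, and Btc and Areg, overlapped as neighbors in that order. At 500 mOsm Hbegf stood first, followed by Errfi1 and Ereg, and no neighbors overlapped. At 600 mOsm Erbb2 and Hbegf were at the top and overlapped, followed by Errfi1 and Lrig1, which also overlapped, and Ereg had dropped below Lrig1.

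The balance of ligand and inhibitor mRNA within a library moved in different ways for Hbegf and Ereg. The ratio of Hbegf to Errfi1 FPKM was 0.880, 0.910 and 0.949 in iso-osmolar medium, 2.01, 1.91 and 1.78 under 500 mOsm, and 1.58, 1.48 and 1.75 under 600 mOsm. It was higher in every stressed library than in any iso-osmolar library, also at 600 mOsm where Hbegf itself had fallen. The ratio of Ereg to Errfi1 was 0.457, 0.367 and 0.402 in iso-osmolar medium, 0.801, 0.680 and 0.715 under 500 mOsm, and 0.284, 0.338 and 0.321 at 600 mOsm, so at 600 mOsm it lay below every iso-osmolar library. These ratios compare mRNA levels and say nothing about protein.

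**Figure D3:**
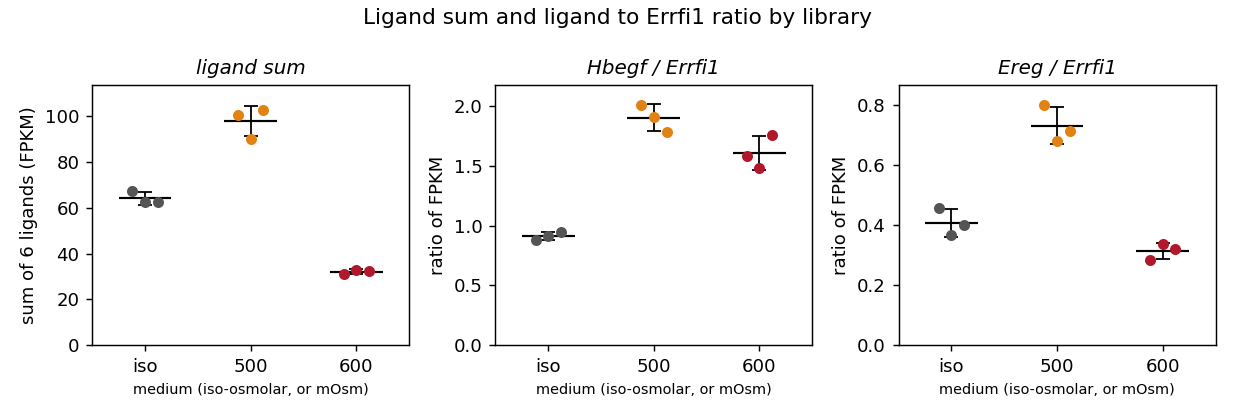
The summed FPKM of the 6 ligands and the ratios of Hbegf and of Ereg to Errfi1 FPKM in each library, by medium. Points are libraries, lines are means and bars are SD (n = 3), axes start at 0; the ligand sum is 90.05 to 102.5 FPKM at 500 mOsm, the Hbegf ratio is above every iso-osmolar library at both intensities, and the Ereg ratio only at 500 mOsm.

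**Figure D4:**
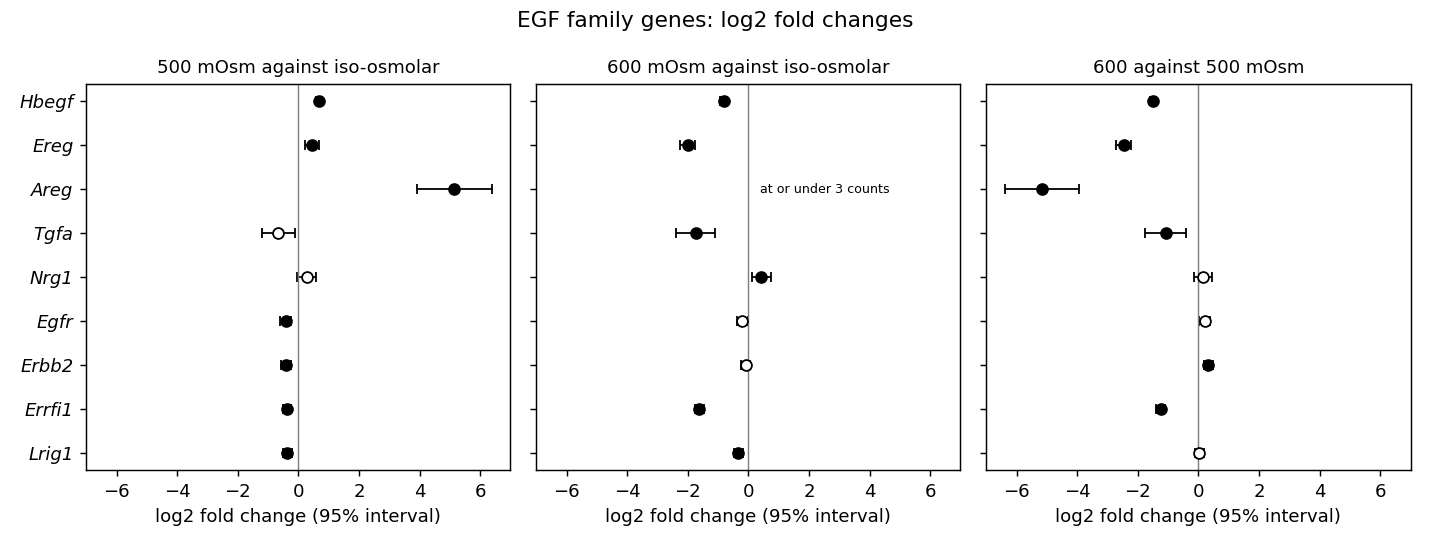
Log2 fold changes (points) and 95% intervals (bars) of the 9 members tested in the 3 comparisons, from the edgeR fit of all 9 libraries. Filled points passed an adjusted p of 0.05. Areg passed the filter on low counts only through its low-intensity libraries, so its filled points and intervals are not given as support. The Areg values rest on 91 against 2 reads and depend on the small count that edgeR adds. Areg is left out where both groups were under the floor.

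For the 5 members that passed in at least 2 comparisons with a level of at least 1 FPKM, the genes with the nearest course over the 9 libraries were looked up by the root mean square distance of centered log2 CPM, among 10381 genes. The genes nearest to Hbegf were 2310014L17Rik (distance 0.0791), Zfp217 (0.0877) and Ier2 (0.0921), where the median gene lay at 0.637. Ier2 is an immediate early gene. The nearest to Ereg were Ptgs2 (0.219), the inducible cyclooxygenase, Dusp2 (0.241), a phosphatase of MAP kinases, and Has2 (0.248), a hyaluronan synthase, with a median of 1.10. Against iso-osmolar medium their log2 fold changes were 0.55, 0.21 and -0.04 at 500 mOsm and -1.62, -2.23 and -2.14 at 600 mOsm. The fall at 600 mOsm that all 3 had in common with Ereg follows largely from their choice by nearness over these same libraries. Has2 did not share the rise of Ereg at 500 mOsm. The nearest to Errfi1 were Zmiz1 (0.0811), Fgd6 (0.130) and Acvr1 (0.133), with a median of 0.717. The nearest to Erbb2 were Repin1 (0.0419), Bud13 (0.0465) and Fut11 (0.0469), with a median of 0.246. The nearest to Lrig1 were Fmnl3 (0.0514), Col6a3 (0.0540) and Bag5 (0.0566), with a median of 0.238.

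The rest of the ErbB pathway was followed in 61 genes listed by role, of which 55 were tested. At 500 mOsm against iso-osmolar medium 2 of the 55 were higher and 11 lower, where 13.2% and 14.8% of all genes tested were called, with a median log2 fold change of -0.01 (0.01 over all genes tested). Once GC content and length were corrected for, 9 were higher and 13 lower. The shares of all genes in this paragraph come from the fit without that correction. The corrected counts therefore have no share beside them and are not read as a result about the pathway. At 600 mOsm 4 were higher and 25 lower (6 and 19 with the correction), where 15.1% and 20.0% of all genes were called, with a median of -0.20 (0.01 over all genes). In the comparison of 600 with 500 mOsm, 3 were higher and 21 lower (7 and 17 with the correction), where 11.9% and 17.2% of all genes were called, with a median of -0.17 (0.01 over all genes).

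Among the 9 genes of ligand shedding, 1 was lower under 500 mOsm (14.8% of all genes tested), and at 600 mOsm 1 was higher (15.1% of all genes) and 4 lower (20.0%). Adam19, a metalloprotease, fell from 8.06 ± 0.479 FPKM in iso-osmolar medium to 2.91 ± 0.145 at 500 mOsm and 3.55 ± 0.202 at 600 mOsm (SD, n = 3 each), log2 fold changes being -1.46 (adjusted p = 1.94e-08, edgeR) and -1.16 (adjusted p = 1.63e-07, edgeR). Timp3, an inhibitor of metalloproteases, was lower at 600 mOsm with log2 fold change -0.52 (adjusted p = 1.14e-05, edgeR), and Adam15 was higher with 0.28 (adjusted p = 0.0236, edgeR). Adam10 was lower at 600 than at 500 mOsm, with log2 fold change -0.49 (adjusted p = 0.00232, edgeR).

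Of the other 16 genes of receptor inhibition and removal, 7 were lower than in iso-osmolar medium at 500 mOsm (14.8% of all genes tested), where the list ran from -2.79 to 0.11 in log2 fold change, and 9 at 600 mOsm (20.0% of all genes), where it ran from -2.51 to 0.12. Their median log2 fold change was -0.16 at 500 mOsm and -0.52 at 600 mOsm, beside 0.01 over all genes in both comparisons. Spry4, a feedback inhibitor of receptor signaling, fell from 0.420 ± 0.0167 FPKM in iso-osmolar medium to 0.0595 ± 0.00788 at 500 mOsm and 0.0706 ± 0.0205 at 600 mOsm (SD, n = 3 each), with adjusted p-values of 5.31e-06 and 1.30e-05 from edgeR. Cblb, a ubiquitin ligase that targets activated receptors, fell from 3.04 ± 0.3999 FPKM to 1.58 ± 0.105 and 0.984 ± 0.0780 (SD, n = 3 each), with adjusted p-values of 2.08e-05 and 3.36e-07 from edgeR. Spry2 was 13.2 ± 0.537 FPKM at 500 mOsm and 4.16 ± 0.424 at 600 mOsm (SD, n = 3 each), log2 fold change -1.65 (adjusted p = 3.51e-08, edgeR). Lrig3, a relative of Lrig1, was higher at 600 than at 500 mOsm by 0.18 (adjusted p = 0.0444, edgeR).

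Of 21 adaptor and ERK cascade genes, 2 were higher and 2 lower under 500 mOsm, beside 13.2% and 14.8% of all genes tested. Under 600 mOsm 2 were higher and 10 lower, beside 15.1% and 20.0% of all genes. Gab1, a docking protein of the receptors, rose from 7.01 ± 0.0786 FPKM to 11.5 ± 0.396 at 500 mOsm and 8.80 ± 0.187 at 600 mOsm (SD, n = 3 each), log2 fold changes being 0.72 (adjusted p = 6.31e-07, edgeR) and 0.35 (adjusted p = 0.000354, edgeR). The Ras exchange factors Sos1 and Sos2 were lower under 600 mOsm, by log2 fold changes of -0.60 (adjusted p = 0.00106, edgeR) and -1.07 (adjusted p = 0.00108, edgeR). Of 8 PI3-kinase and Akt genes, 1 was lower under 500 mOsm (14.8% of all genes tested), and 1 was higher (15.1% of all genes) and 2 lower (20.0%) under 600 mOsm, which is near the share over all genes. The regulatory subunit gene Pik3r1 went from 2.73 ± 0.225 FPKM to 2.03 ± 0.331 and 1.54 ± 0.246 (SD, n = 3 each), with log2 fold changes of -0.43 (adjusted p = 0.0216, edgeR) and -0.81 (adjusted p = 0.000413, edgeR). Of 13 genes whose transcription commonly follows ERK activity, 3 were higher and 7 lower at 500 mOsm, beside 13.2% and 14.8% of all genes tested. The list ran from -2.45 to 3.81 in log2 fold change, with a median of -0.44. The 3 higher genes, named after their values were seen, were the early response genes Fos (3.81), Ier3 (2.83) and Egr1 (2.16). The 7 lower genes were Dusp5 (-2.45), Etv5 (-1.27), Phlda1 (-1.13), Dusp6 (-0.96), Fosl1 (-0.76), Spred1 (-0.57) and Spred2 (-0.44). At 600 mOsm 11 were lower (20.0% of all genes) and the list ran from -2.05 to -0.13, with a median of -1.21, beside 0.01 over all genes in both comparisons.

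**Figure D5:**
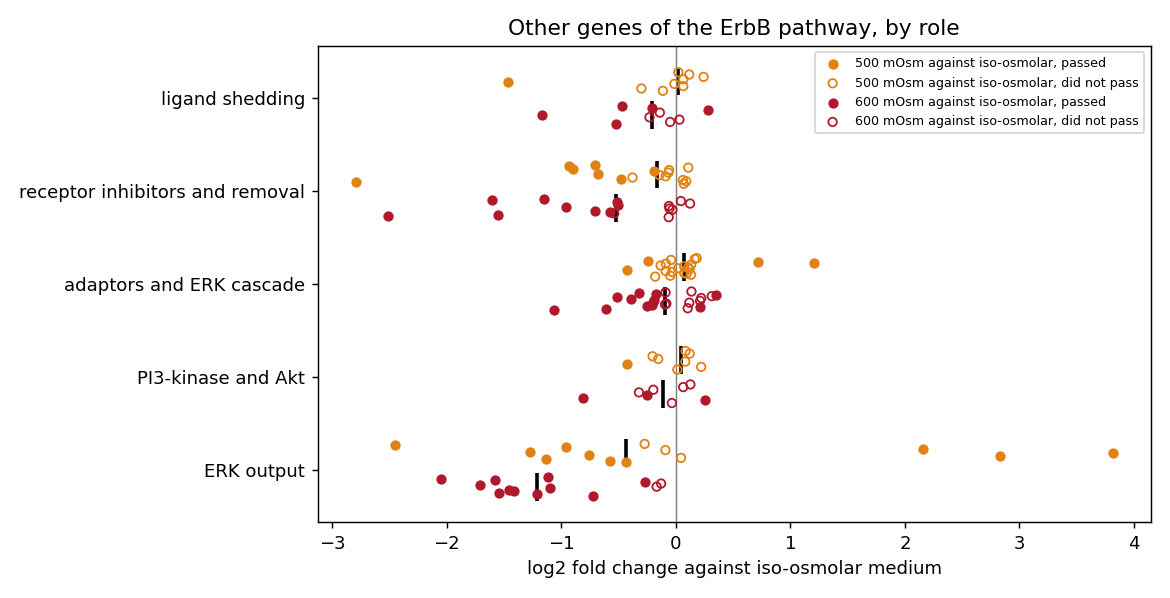
Log2 fold change against iso-osmolar medium of the other tested ErbB pathway genes (Egf not shown) and of ERK output genes, by role (rows). Each point is a gene, orange for 500 mOsm and red for 600 mOsm, filled where the adjusted p was under 0.05, and black bars are medians; among inhibitors and removal genes the median is -0.16 at 500 mOsm and -0.52 at 600 mOsm.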

How the data were processed

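The authors deposited 1 table with, per gene and library, the raw count of reads and the FPKM, which equals the count scaled by gene length and by the total counts of the library. STAR and CASAVA 1.8 are named in the submitters' processing notes and mm10 as the genome; the counting tool is not given in the sources used here. The authors' fold changes, p-values and group means were not used.

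Counts were scaled by TMM, filtered by filterByExpr (minimum count 10) and tested in edgeR 4.0.16 (R 4.3.3, quasi-likelihood, all 9 libraries in 1 fit), with Benjamini-Hochberg adjustment over 13082 genes and a threshold of 0.05. Standard errors are the log2 fold change divided by the root of F. Counting intervals are exact binomial (95%). The scripts were tested on simulated data. Replicate libraries differed by more than sampling noise (chi-square per degree of freedom from 5.04 to 15.1). Levels between genes are compared in FPKM only. All members are named. Of the other pathway genes, at most the 2 per list, comparison and direction with the largest change among those that passed are named, except that ligands and receptors near the floor were named after their values were seen. The members and lists were chosen with earlier results of these data known. The results were recomputed with RLE factors or library size alone as the scaling, without the filter or with a floor of 10 counts in each library, with the DESeq2 1.42.0 Wald test, with each pair of groups fitted alone, with a block for the replicate number, with stricter calls (adjusted p under 0.01, or absolute log2 change of 1 or more), with limma 3.58.1 on log2 FPKM after adding 1 or 0.1, and leaving out each library. A smooth correction for GC content and transcript length (GENCODE vM21) was added after the data were seen.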

Additional observations from a re-analysis of the deposited data

Results flagged for a closer look

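Hbegf and Ereg changed in opposite directions at the 2 intensities against iso-osmolar medium, rising at 500 mOsm and falling at 600 mOsm, and the difference between the intensities was itself tested. The log2 fold change of 600 against 500 mOsm was -1.49 in Hbegf (adjusted p = 4.45e-10, edgeR) and -2.47 in Ereg (adjusted p = 1.24e-08, edgeR). All 3 libraries at 500 mOsm were above, and all 3 at 600 mOsm below, every iso-osmolar library in both genes. The comparisons with iso-osmolar medium share its 3 libraries.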

How the results depend on the processing

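Over 21 alternatives, 528 of 560 values of single members kept their direction and their side of the threshold, 25 lost the call, 2 gained it and 5 changed sign. The share of all genes called is not given for the alternatives. The counts of members and pathway genes here and in the next paragraph are therefore not read as a result about these genes. When calls also needed a log2 change of 1 or more in size, 1 member (Areg, tested through its 500 mOsm libraries alone) differed at 500 mOsm, where the other 6 calls were lost, and 3 differed at 600 mOsm from iso-osmolar medium, and 3, 6 and 2 other pathway genes differed at 500 mOsm, at 600 mOsm and between the intensities. With GC content and length corrected for, 22 other pathway genes differed at 500 mOsm, where 13 did without it, and Egfr at 600 mOsm against iso-osmolar medium changed sign to 0.081; the cause was not tested. Areg at 600 mOsm against iso-osmolar medium, at 2 reads in each group, ran from -0.55 to 0.54 over the fits with a library left out, with the sign changed in 3, and Lrig1 between the intensities ran from -0.038 (without 600 mOsm replicate 3) to 0.067. With each library left out, 7 members differed at 500 mOsm in every fit, 5 to 6 at 600 mOsm and 5 to 6 between the intensities, and the other pathway genes numbered 12 to 19, 22 to 32 and 18 to 23. The Egfr difference between the intensities passed without 500 mOsm replicate 1 (adjusted p = 0.0391, edgeR).

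With the replicate number as a block, 7, 6 and 6 members and 11, 24 and 19 other pathway genes differed, in the same order of comparisons, and no call of a member changed. The numbers were not treated as pairs, since libraries with the same number did not, on average, deviate together from their group means. Their mean r was -0.242 in 9 pairs over 8403 genes (lowest -0.688, highest 0.611). The mean of the 18 pairs of unlike number, 0.123, is no separate evidence, since deviations from group means cancel within each group. Single pairs of unlike number ran from -0.325 to 0.603 (iso-osmolar replicate 2 with 600 mOsm replicate 3). Structure shared across treatments under other numbers was not tested. Depth limits Areg, Btc and Tgfa, whose reads per library were at most 37, 7 and 30. With at least 10 counts required in every library, Areg and Tgfa were not tested.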
